A study of Mus musculus with 54 samples.

Results

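The genes described here are those of the cadherin switch and its transcription factors: the adhesion genes Cdh1, Cdh2 and Epcam and the factor genes Zeb1, Zeb2, Snai1, Snai2 and Twist1. They were taken by name, as 8 of the 55401 genes in the deposited count table, and all 8 passed the filter on low counts in both states. The study sequenced polyadenylated RNA from mouse embryonic stem cells that carry variants of EZH2, the methyltransferase subunit of Polycomb repressive complex 2. Each of the following lines was measured in 3 libraries in each of 2 states, which gives 16 groups and 48 libraries. The 4 lines A677T, R679C, K634E and K563E are Ezh2 fl/Δ heterozygous cells that express an EZH2 variant associated with Weaver syndrome, an overgrowth condition. The line A733T is the same heterozygote expressing a variant treated here as the one associated with growth restriction, which the labels do not spell out by name. The line WT is the heterozygote expressing EZH2-WT, so that every variant line and WT share both the Ezh2 deletion and an added EZH2. The line het is the heterozygote with no added EZH2. The line parental is labelled as the parent, and its columns of counts are named flfl, read here as Ezh2 fl/fl. The state mESC is undifferentiated culture, and the state ATRA is culture with all-trans retinoic acid, after withdrawal of the inhibitors known as 2i and of the cytokine LIF. No label says whether a line is 1 clone or whether replicates are separate cultures, so the p-values measure only the spread between these libraries, which may be technical.

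Epithelial cells hold together through E-cadherin, the product of Cdh1, and in an epithelial-to-mesenchymal transition (EMT) they lose it and often gain N-cadherin, the product of Cdh2, which is called the cadherin switch. The zinc finger proteins ZEB1, ZEB2, SNAI1 and SNAI2 bind E-box motifs in the Cdh1 promoter and repress it, and TWIST1 is a basic helix-loop-helix factor that acts in the same programme. Undifferentiated mouse embryonic stem cells grow as compact colonies that express Cdh1, and some of the cells leaving pluripotency in the embryo pass through an EMT at gastrulation.

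Libraries held 15361598 to 31338825 counts. In mESC the stem cell identity named in the labels was carried by the marker genes. All 10 pluripotency markers reached 1 CPM (a count scaled by its library's TMM-normalised size), with a sum of 5373 to 6884 CPM. In ATRA libraries the sum was lower, at 867 to 1326 CPM, and Dppa3 ran between 0.327 and 1.89 CPM. Here and below, a marker is said to reach 1 CPM if it does so in at least 1 library. Ezh2 averaged 488.5 to 560.0 CPM in the Weaver lines, 360.5 CPM in A733T, 439 CPM in WT, 281 CPM in het and 302 CPM in parental cells in mESC. In ATRA, Ezh2 averaged 384 to 424 CPM in the Weaver lines, 275 CPM in A733T and 362 CPM in WT. In both states every Weaver library lay above the WT libraries and every A733T library below them. Ezh2 RNA level and variant therefore cannot be told apart in the comparisons with WT. Reads from the added EZH2 may be counted there, so these levels do not check the deletion. Each library's deviation from its state mean was rank-correlated with gene GC content. In mESC the correlation was -0.56 to 0.04 in the 12 Weaver libraries, against 0.34 to 0.50 in the 3 WT libraries. It was 0.04 to 0.33 in A733T and 0.23 to 0.32 in het libraries, also without overlap with WT. GC trend and genotype therefore cannot be told apart by library in the comparisons of these lines with WT in mESC. In ATRA the correlation was -0.60 to -0.16 in K634E libraries, below the -0.15 to 0.38 in WT libraries, so the same holds for that comparison. The other variant lines and het overlapped WT in ATRA. Corrected values are given where a call changes. In bulk RNA, fewer cells expressing a gene and less RNA per cell cannot be told apart.

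The adhesion genes stood far above the factor genes when counts were scaled to gene length (RPKM, the CPM value per kilobase over the union of annotated exons, a measure that reads low for a gene with unused exons). In WT cells in mESC, Cdh1 averaged 168 ± 12.8 RPKM and Epcam 32.9 ± 0.61 RPKM (SD, n = 3). Below them came Snai1 at 1.81 ± 0.444 RPKM, Twist1 at 1.24 ± 0.196 RPKM, Zeb1 at 0.919 ± 0.108 RPKM and Cdh2 at 0.892 ± 0.184 RPKM. Snai2 at 0.159 ± 0.0199 RPKM and Zeb2 at 0.0282 ± 0.00457 RPKM were the lowest. The libraries of Snai1 and Twist1 overlapped, as did those of Zeb1 and Cdh2, so neither pair had a clear order. Overlapping antisense and non-coding genes at the Cdh2, Zeb1 and Zeb2 loci reached at most 0.268 CPM in any library.

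**Figure D1:**
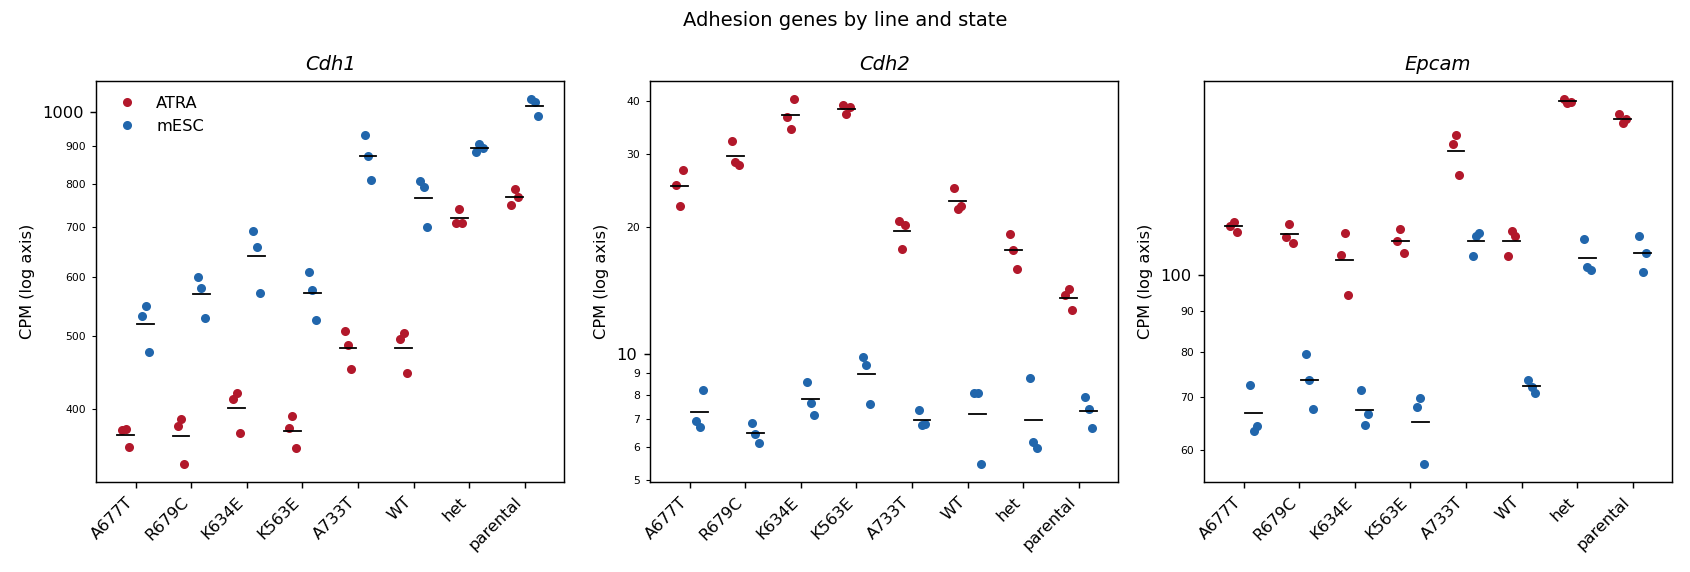
CPM of Cdh1, Cdh2 and Epcam in each library (log axis) by line, with ATRA in red left of mESC in blue, and black bars for group means (n = 3). Cdh1 in mESC was 477 to 692 CPM in the 12 Weaver libraries, all below the WT libraries.

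From mESC to ATRA, the cells gained Cdh2 and the factor genes and lost part of their Cdh1. No group had 2i and LIF withdrawn without retinoic acid, so withdrawal and retinoic acid cannot be told apart. Below, "after retinoic acid" stands for the ATRA state. In the WT line all 8 genes changed between ATRA and mESC, 7 higher and 1 lower, in a comparison in which 59% of all tested genes were called, 29.8% higher and 29.2% lower (edgeR quasi-likelihood test, Benjamini-Hochberg adjusted p under 0.05). The median log2 fold change was 1.46 over the 8 genes and 0.02 over all genes tested. Cdh1 measured 496, 506 and 446 CPM in ATRA libraries of WT cells, against 808, 793 and 699.8 CPM in mESC libraries. All ATRA values lay below all mESC values (log2 fold change -0.67 ± 0.07 (SE), adjusted p = 3.58e-11). Cdh2 measured 24.8, 22.1 and 22.5 CPM in ATRA libraries, against 8.05, 8.06 and 5.48 CPM in mESC libraries, without overlap (log2 fold change 1.68 ± 0.12 (SE), adjusted p = 1.81e-16). Epcam, a homophilic adhesion molecule of epithelia and stem cells, did not follow Cdh1: it measured 106, 114 and 112 CPM in ATRA libraries and 73.6, 72.2 and 70.9 CPM in mESC libraries (log2 fold change 0.61 ± 0.07 (SE), adjusted p = 7.01e-11). All ATRA libraries lay above all mESC libraries.

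Among the factor genes, Zeb2 changed the most. It measured 12.9, 15.5 and 15.7 CPM in ATRA libraries of WT cells, against 0.658, 0.477 and 0.553 CPM in mESC libraries, a 26-fold difference (log2 fold change 4.70 ± 0.22 (SE), adjusted p = 3.42e-23). Snai2 measured 1.75, 1.15 and 1.97 CPM in ATRA libraries, against 0.354, 0.334 and 0.277 CPM in mESC libraries, without overlap (log2 fold change 2.29 ± 0.41 (SE), adjusted p = 4.77e-06). The other factor genes also rose, Twist1 by 1.99 ± 0.17, Zeb1 by 1.24 ± 0.10 and Snai1 by 0.76 ± 0.17 on the log2 scale (SE), with adjusted p-values of 8.97e-14, 5.53e-15 and 0.000112. The direction was the same in all 8 lines for each of the 8 genes. Of all genes, 55.3% were called in A677T, 57.5% in R679C, 57.4% in K634E, 57.8% in K563E, 55.8% in A733T, 56.8% in het and 55.2% in parental cells. Across lines the log2 fold change ran between -0.85 in A733T and -0.31 in het for Cdh1, between 0.89 in parental and 2.25 in K634E for Cdh2, and between 3.98 in R679C and 5.32 in A733T for Zeb2. Only Snai1 in the parental line missed the threshold (log2 fold change 0.35, adjusted p = 0.0608), and it passed with RLE size factors (adjusted p = 0.0416) and with the GC correction (0.0307). The call of Snai2 in A677T was lost without mESC replicate 2 of that line (adjusted p = 0.188), and that of Snai1 in het without mESC replicate 1 of het (adjusted p = 0.0509).

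In undifferentiated cells the Weaver lines had less Cdh1 and more Zeb1 than the WT line. Of the 8 genes, 2 were higher and 2 lower in the mean of the 4 Weaver lines, in a comparison in which 44.4% of all tested genes were called, 21.4% higher and 22.9% lower. The count itself is near that background, and the median log2 fold change was 0.03 over the 8 genes. Cdh1 ran between 477 and 692 CPM in the 12 Weaver libraries, with a median of 574 CPM, against 808, 793 and 699.8 CPM in WT libraries. No Weaver library reached the lowest WT library (log2 fold change -0.38 ± 0.06 (SE), adjusted p = 5.57e-06). Each of the 4 lines was lower on its own, from -0.52 in A677T to -0.23 in K634E on the log2 scale, in comparisons that share the WT libraries and in which 44.6% (A677T), 23.7% (R679C), 29.3% (K634E) and 34.5% (K563E) of all genes were called. The K634E call was the weakest (adjusted p = 0.0219) and was lost without WT replicate 1 (adjusted p = 0.0955) or 2 (0.0861), or without K634E replicate 2 (0.0507) or 3 (0.0951). Zeb1, which encodes a direct repressor of Cdh1, ran between 11.9 and 22.4 CPM in the Weaver libraries, with a median of 16.1 CPM, against 10.3, 9.77 and 8.19 CPM in WT libraries. Again the groups did not overlap (log2 fold change 0.84 ± 0.09 (SE), adjusted p = 6.22e-08). A677T was the highest line, at 22.4, 20.1 and 22.4 CPM, and all 4 lines passed the test on their own, with log2 fold changes of 0.63 to 1.23.

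Zeb2 and Twist1 also differed in undifferentiated cells, in opposite directions and with less support. Zeb2 ran between 0.306 and 1.75 CPM in the Weaver libraries, with a median of 1.18 CPM, against 0.658, 0.477 and 0.553 CPM in WT libraries. The groups overlapped through replicate 1 of A677T and of K634E (log2 fold change 1.0 ± 0.36 (SE), adjusted p = 0.0246). Line by line, the adjusted p for Zeb2 was 0.219 in A677T, 0.0505 in R679C, 0.0511 in K634E and 0.0599 in K563E. When low counts were kept, R679C (0.0326), K634E (0.036) and K563E (0.049) were called, and DESeq2 called R679C (0.0484) and K634E (0.0473). The call on the mean was lost with a correction for GC content (log2 fold change 0.72, adjusted p = 0.0923) and without WT replicate 2 (0.102) or 3 (0.0882). Twist1 ran between 0.796 and 2.01 CPM in the Weaver libraries, with a median of 1.2 CPM, against 1.92, 1.76 and 2.38 CPM in WT libraries (log2 fold change -0.72 ± 0.19 (SE), adjusted p = 0.00273). Its call was lost with the GC correction as well (log2 fold change -0.43, adjusted p = 0.0775). Single lines called for Twist1 were A677T (log2 fold change -1.14 ± 0.26 (SE), adjusted p = 0.000889) and K634E (log2 fold change -0.94 ± 0.25 (SE), adjusted p = 0.00697), the second of which was lost with the GC correction (adjusted p = 0.101) and without K634E replicate 2 (0.0543). These 2 genes lie near opposite ends of the GC range, with 40.6% GC for Zeb2 and 59.3% for Twist1, while Cdh1 has 50.7% and Zeb1 46.1%. Cdh2 (0.10 ± 0.12), Epcam (-0.05 ± 0.06), Snai1 (-0.21 ± 0.15) and Snai2 (0.91 ± 0.42) did not pass the test (log2 fold change ± SE, adjusted p = 0.528, 0.516, 0.27 and 0.0808). Snai2 passed without A677T replicate 2 (adjusted p = 0.0304), which held 0.145 CPM, the lowest of the 12 Weaver libraries.

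**Figure D2:**
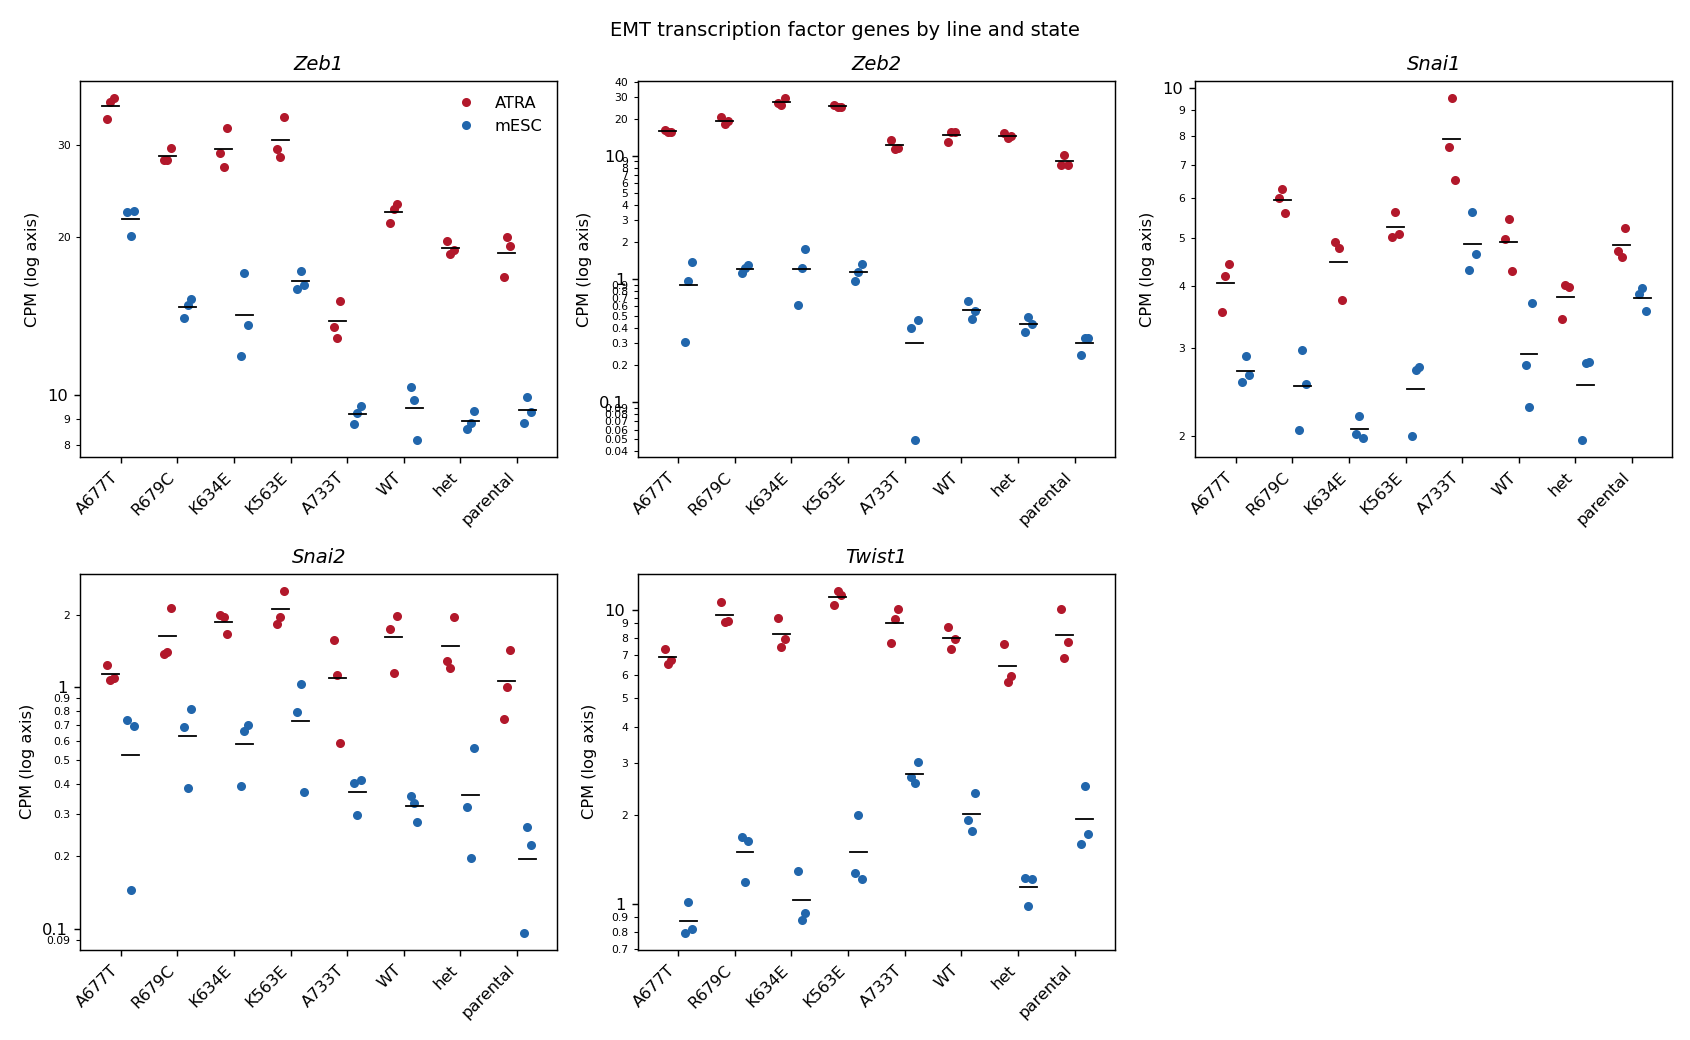
CPM of the 5 transcription factor genes in each library (log axis) by line, with ATRA in red left of mESC in blue, and black bars for group means (n = 3). The Weaver libraries held 11.9 to 22.4 CPM of Zeb1 in mESC, all above the WT libraries, and Zeb2 stood at 15.6 to 29.4 CPM in Weaver libraries after retinoic acid.

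After retinoic acid the Weaver lines had lower Cdh1 and higher Cdh2, Zeb1 and Zeb2 than WT cells in the same state. This made 4 of the 8 genes called, 3 higher and 1 lower, in a comparison that called 20.5% of all tested genes, 8.43% higher and 12.1% lower. The median log2 fold change was 0.09 over the 8 genes. Cdh1 ran between 338 and 420.3 CPM in the 12 Weaver libraries, with a median of 377 CPM, against 496, 506 and 446 CPM in WT libraries. All Weaver libraries were below all WT libraries (log2 fold change -0.35 ± 0.05 (SE), adjusted p = 4.45e-06). Cdh2 ran between 22.4 and 40.4 CPM in the Weaver libraries, with a median of 33.2 CPM, against 24.8, 22.1 and 22.5 CPM in WT libraries (log2 fold change 0.47 ± 0.07 (SE), adjusted p = 2.64e-05). The overlap came from A677T, whose libraries held 25.2, 22.4 and 27.5 CPM, while the other 3 lines lay above WT.

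Zeb1 in ATRA ran between 27.3 and 36.9 CPM in the Weaver libraries, with a median of 29.6 CPM, against 21.3, 22.7 and 23.2 CPM in WT libraries (log2 fold change 0.47 ± 0.07 (SE), adjusted p = 1.82e-05). Zeb2 ran between 15.6 and 29.4 CPM, with a median of 22.8 CPM, against 12.9, 15.5 and 15.7 CPM in WT libraries (log2 fold change 0.54 ± 0.08 (SE), adjusted p = 6.91e-06). For Zeb1 the groups did not overlap, and for Zeb2 they did, again through A677T at 16.1, 15.7 and 15.6 CPM. Line by line, Cdh1 and Zeb1 were called in all 4 variants, and Cdh2 and Zeb2 in R679C, K634E and K563E but not in A677T, where the log2 fold changes were 0.11 ± 0.09 (adjusted p = 0.46) and 0.10 ± 0.10 (adjusted p = 0.558). Single variants were not tested against each other. In the single-variant comparisons with WT in ATRA, 19.4% of all genes were called for A677T, 10.3% for R679C, 15% for K634E and 20.5% for K563E. The calls in R679C were the weakest, since that of Cdh2 was lost without WT replicate 2 (adjusted p = 0.0501) or R679C replicate 1 (0.067), and that of Zeb2 without WT replicate 1 (0.0634). Twist1 was called in K563E alone (log2 fold change 0.47 ± 0.14 (SE), adjusted p = 0.0162), a call lost without WT replicate 2 (0.0925) or K563E replicate 2 (0.0611) or 3 (0.0523). Epcam (0.01 ± 0.05), Snai1 (-0.01 ± 0.11), Snai2 (0.03 ± 0.23) and Twist1 (0.14 ± 0.11) did not pass on the Weaver mean (log2 fold change ± SE). Beside these values, the 10 primitive endoderm markers summed to 92.6 to 120.0 CPM in the Weaver libraries and 197 to 200.5 CPM in WT libraries in ATRA, with 9 of 10 reaching 1 CPM. The 8 neural crest markers summed to 18.3 to 29.8 CPM in the Weaver libraries and 17.4 to 18.2 CPM in WT libraries, with 6 of 8 reaching 1 CPM. The 8 neuroectoderm markers summed to 189 to 266.0 CPM in the Weaver libraries and 186 to 198 CPM in WT libraries, with 6 of 8 reaching 1 CPM. The part of such cells in the differences was not tested.

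**Figure D3:**
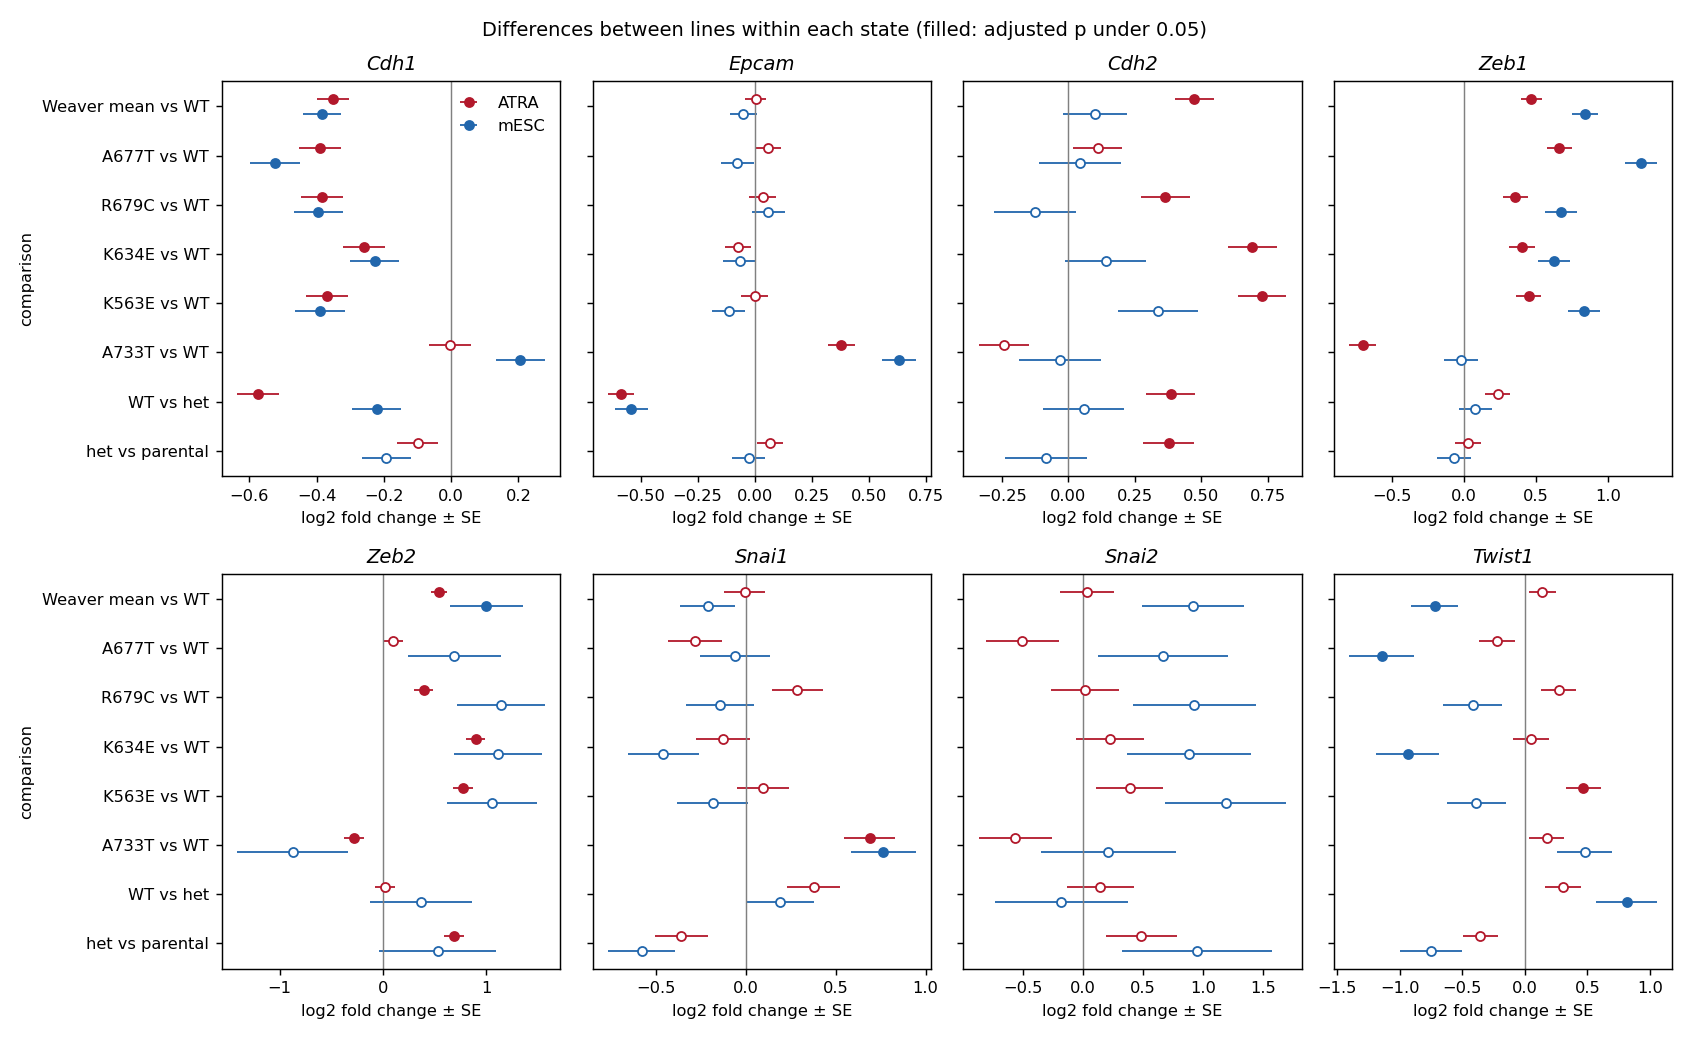
Log2 fold change with its SE for each gene (panels) in the comparisons between lines (rows), with ATRA in red and mESC in blue and filled points for adjusted p under 0.05. Cdh1 was below 0 in both states in all 4 Weaver lines, Epcam was above 0 in A733T (0.38 in ATRA and 0.63 in mESC), and Zeb1 in A733T was -0.70 in ATRA.

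The A733T line differed from WT through Epcam and Snai1, which were higher in both states. In mESC, Epcam averaged 110 CPM in A733T, 105 CPM in het and 107 CPM in parental cells. In ATRA these means were 144, 166 and 158 CPM, and A733T was not tested against het. Against WT in mESC, 3 of the 8 genes were higher and 0 lower, in a comparison that called 19.3% of all genes, 10.7% higher and 8.64% lower. The median log2 fold change was 0.21 over the 8 genes. Epcam measured 106, 112 and 113 CPM in A733T libraries, against 73.6, 72.2 and 70.9 CPM in WT libraries, without overlap (log2 fold change 0.63 ± 0.07 (SE), adjusted p = 5.31e-07). Snai1 measured 4.32, 5.62 and 4.64 CPM in A733T libraries, against 2.78, 2.29 and 3.71 CPM in WT libraries (log2 fold change 0.76 ± 0.18 (SE), adjusted p = 0.00361). Both held in each leave-one-out fit. Cdh1 just passed (log2 fold change 0.21 ± 0.07 (SE), adjusted p = 0.0492), and its call was lost without WT replicate 3 (log2 fold change 0.13, adjusted p = 0.292), A733T replicate 1 (0.209) or A733T replicate 2 (0.0880), or when low counts were kept (0.0803).

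In ATRA, 4 of the 8 genes differed in A733T, 2 higher and 2 lower, where 17.7% of all genes were called, 10.4% higher and 7.33% lower. The median log2 fold change was -0.12 over the 8 genes. Epcam measured 147, 151 and 134 CPM in A733T libraries, against 106, 114 and 112 CPM in WT libraries (log2 fold change 0.38 ± 0.06 (SE), adjusted p = 3.91e-05). Snai1 measured 7.62, 9.53 and 6.54 CPM in A733T libraries, against 4.97, 5.46 and 4.3 CPM in WT libraries (log2 fold change 0.69 ± 0.14 (SE), adjusted p = 0.000906). Neither gene overlapped between the lines. Zeb1 measured 13.5, 12.8 and 15.1 CPM in A733T libraries, against 21.3, 22.7 and 23.2 CPM in WT libraries, also without overlap but lower (log2 fold change -0.70 ± 0.09 (SE), adjusted p = 5.44e-06). In mESC, Zeb1 had measured 8.8, 9.22 and 9.53 CPM in A733T libraries and 10.3, 9.77 and 8.19 CPM in WT libraries (log2 fold change -0.02 ± 0.12 (SE), adjusted p = 0.936), and the change in the difference between states passed its own test (log2 -0.66 ± 0.14, adjusted p = 0.00333), where 3.17% of all genes did. Zeb2 was lower as well (log2 fold change -0.28 ± 0.10 (SE), adjusted p = 0.0465), a call lost without WT replicate 2 (0.149) or 3 (0.183), without A733T replicate 2 (0.200) or 3 (0.103), or when low counts were kept (0.122). Cdh2 measured 20.7, 17.8 and 20.3 CPM in A733T libraries, against 24.8, 22.1 and 22.5 CPM in WT libraries, and did not pass (log2 fold change -0.24 ± 0.09 (SE), adjusted p = 0.0735), but was called with the GC correction (adjusted p = 0.0394). In mESC, Twist1 was called with that correction (log2 fold change 0.64, adjusted p = 0.036, against 0.127 without it). Beside these values, the 10 fibroblast markers summed to 13.3 to 15.9 CPM in A733T libraries and 6.2 to 7.48 CPM in WT libraries in mESC, and to 19.2 to 25.2 CPM in A733T and 9.09 to 12.5 CPM in WT in ATRA. Of these markers 3 of 10 reached 1 CPM in mESC, Fap stood at 0 counts in every library and Postn at 0 in mESC. The largest part of the mESC sum was Pdgfrb, at 1.28 to 10.8 CPM over all mESC libraries. The 8 trophoblast markers summed to 49.7 to 54.9 CPM in A733T libraries and 18.2 to 20.3 CPM in WT libraries in ATRA, and 6 of 8 reached 1 CPM there. The part of these cell types in the differences was not tested.

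The windows around the starts of Epcam and Snai1 are shown because these genes differed between A733T and WT in both states. Each window also holds a copy of CAGGTG, the E-box that SNAI and ZEB proteins bind. Each runs from 250 bases before the start to 50 bases after it, from RefSeq on GRCm38.p6, with CAGGTG or its reverse complement CACCTG in capitals. Epcam lies on chr17:87635979-87651129 and its window on chr17:87635729-87636028, plus strand. Snai1 lies on chr2:167538195-167542814 and its window on chr2:167537945-167538244, plus strand.
Epcam: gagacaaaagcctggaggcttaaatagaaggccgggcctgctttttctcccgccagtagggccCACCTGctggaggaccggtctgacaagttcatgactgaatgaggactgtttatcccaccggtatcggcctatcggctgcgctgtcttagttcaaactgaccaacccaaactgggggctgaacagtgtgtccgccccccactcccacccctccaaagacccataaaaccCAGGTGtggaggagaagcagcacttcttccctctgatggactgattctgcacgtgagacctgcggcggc
Snai1: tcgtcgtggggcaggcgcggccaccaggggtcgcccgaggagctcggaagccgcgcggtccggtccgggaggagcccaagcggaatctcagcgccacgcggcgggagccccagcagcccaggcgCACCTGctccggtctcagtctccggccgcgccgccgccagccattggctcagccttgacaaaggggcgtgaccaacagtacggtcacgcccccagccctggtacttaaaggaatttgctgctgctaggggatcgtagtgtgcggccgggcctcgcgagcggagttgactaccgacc
The Epcam window held 2 copies, the Snai1 window 1, and those of Zeb2 and Twist1 0, on either strand. Of 32817 such windows in the genome, 20.2% held at least 1 copy. Windows were examined for 4 of the 8 genes, namely Epcam, Snai1, Zeb2 and Twist1. Those of Cdh1, Cdh2, Snai2 and Zeb1 were not examined, so the E-box motifs of the Cdh1 promoter were not looked at here. The Snai1 and Twist1 windows were rich in CpG, with 34 and 27 CpG dinucleotides, and the Epcam window held 11, against a median of 7 over all windows. A match to these letters describes the sequence and is no measure of binding.

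Added EZH2-WT was accompanied by lower Epcam and Cdh1 than in the heterozygote without it. In ATRA, Cdh1 measured 496, 506 and 446 CPM in WT libraries, against 709, 740.3 and 710.0 CPM in het libraries (log2 fold change -0.57 ± 0.06 (SE), adjusted p = 1.82e-07). Epcam measured 106, 114 and 112 CPM in WT libraries, against 167, 165 and 166 CPM in het libraries (log2 fold change -0.59 ± 0.06 (SE), adjusted p = 3.3e-08). Cdh2 measured 24.8, 22.1 and 22.5 CPM in WT libraries, against 19.3, 17.7 and 16 CPM in het libraries (log2 fold change 0.38 ± 0.09 (SE), adjusted p = 0.00454). The primitive endoderm markers summed to 197 to 200.5 CPM in WT libraries and 123 to 134 CPM in het libraries in this state. The neuroectoderm markers summed to 186 to 198 CPM in WT libraries and 146 to 173 CPM in het libraries. The part of such cells in the differences was not tested. Cdh1, Epcam and Cdh2 were the 3 of 8 genes called, where 16.4% of all genes were called, 7.64% higher and 8.74% lower. Their libraries did not overlap between the lines, and neither did those of Snai1 and Zeb1, which were not called. The share of all genes without overlap was not counted. With the GC correction Snai1 (0.44, adjusted p = 0.0210) and Zeb1 (0.23, adjusted p = 0.0224) were called higher in WT as well. In mESC, 1 gene was higher and 2 were lower in WT, where 12.1% of all genes were called, 5.22% higher and 6.84% lower. Epcam measured 73.6, 72.2 and 70.9 CPM in WT libraries, against 111, 102 and 102 CPM in het libraries (log2 fold change -0.54 ± 0.07 (SE), adjusted p = 9.82e-06), and this held in every leave-one-out fit. Cdh1 (log2 fold change -0.22 ± 0.07 (SE), adjusted p = 0.0476) lost its call in each of the 6 leave-one-out fits, with adjusted p-values of 0.05005 without WT replicate 1 to 0.250 without WT replicate 3. Twist1 (log2 fold change 0.82 ± 0.24 (SE), adjusted p = 0.027) lost its call without het replicate 2 (0.119) or 3 (0.0702), without WT replicate 1 (0.0607) or 3 (0.123), or when low counts were kept (0.0693).

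The heterozygote itself differed from the parental line in few of these genes. In mESC 0 of 8 were called by edgeR, where 3.44% of all genes were, 1.17% higher and 2.26% lower. The smallest adjusted p-values were those of Snai1 (log2 fold change -0.58 ± 0.19 (SE), adjusted p = 0.0991), Twist1 (log2 fold change -0.75 ± 0.25 (SE), adjusted p = 0.108) and Cdh1. Cdh1 measured 882, 904 and 895 CPM in het libraries, against 1039, 1029.6 and 987 CPM in parental libraries. These did not overlap (log2 fold change -0.19 ± 0.07 (SE), adjusted p = 0.194), and the difference was called with the GC correction (log2 fold change -0.20, adjusted p = 0.0391). The libraries of Snai1 and of Twist1 did not overlap between the lines either, and the share of all genes without overlap was not counted. Of the 8 genes, 3 had an unadjusted p under 0.05, and DESeq2 called 0. In ATRA, 2 of 8 were higher and 0 lower in het, where 6.25% of all genes were called, 2.2% higher and 4.05% lower. Zeb2 measured 15.2, 13.9 and 14.5 CPM in het libraries, against 8.47, 10.2 and 8.49 CPM in parental libraries (log2 fold change 0.69 ± 0.10 (SE), adjusted p = 2.64e-05). Cdh2 measured 19.3, 17.7 and 16 CPM in het libraries, against 13.8, 14.3 and 12.7 CPM in parental libraries (log2 fold change 0.38 ± 0.10 (SE), adjusted p = 0.0143), and its call was lost without parental replicate 3 (adjusted p = 0.0829) or het replicate 1 (0.125). Neither gene overlapped between the lines, and nor did Cdh1, Epcam and Snai1, which were not called.

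Whether a difference between lines changed between mESC and ATRA was tested by interaction terms over all 48 libraries. For the Weaver mean against WT, 2 of the 8 genes were called, 1 higher and 1 lower, where 7.07% of all genes were, 4.54% higher and 2.53% lower. For Twist1 the difference between the Weaver mean and WT was 0.14 ± 0.11 in ATRA and -0.72 ± 0.19 in mESC, and the change was 0.90 ± 0.21 on the log2 scale (adjusted p = 0.00376). This call was lost without mESC WT replicate 3 (log2 0.73, adjusted p = 0.0717). Zeb1 was less raised in ATRA than in mESC, by -0.34 ± 0.11 (adjusted p = 0.0493), a call lost in 20 of 30 leave-one-out fits and when low counts were kept (0.0973). Cdh1 (0.07 ± 0.08, adjusted p = 0.673) and Cdh2 (0.41 ± 0.14, adjusted p = 0.0577) did not pass. DESeq2 called Cdh2 (log2 0.40, adjusted p = 0.0446), as did 5 of 30 leave-one-out fits. For A733T against WT, Zeb1 was the 1 gene called (given above), and Epcam was called with the GC correction (log2 -0.30, adjusted p = 0.00484, against 0.197 without it). For WT against het, where 2.25% of all genes were called, Cdh1 was lower by a further -0.36 ± 0.10 in ATRA (adjusted p = 0.0439), a call lost in 10 of 12 leave-one-out fits and with RLE size factors (0.0506).

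The ratio of Cdh1 to Cdh2 per length combines both sides of the switch within a library. In ATRA it was 16.2 to 29.6 in the Weaver libraries, with a median of 21.0, and 39.4 to 48.2 in A733T, 35 to 40.3 in WT, 64.7 to 78.5 in het and 95.8 to 107 in parental libraries. In mESC it was 102.7 to 159 in the Weaver libraries, with a median of 141, and 210.3 to 227 in A733T, 174 to 225 in WT, 178 to 264 in het and 232 to 261 in parental libraries. Every ATRA library of a line lay below every mESC library of the same line. In ATRA the Weaver libraries lay below all WT libraries, which lay below all het libraries, which lay below all parental libraries. In mESC the Weaver libraries again lay below WT, but WT and het overlapped, as did het and parental. The ratio was not tested on its own.

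**Figure D4:**
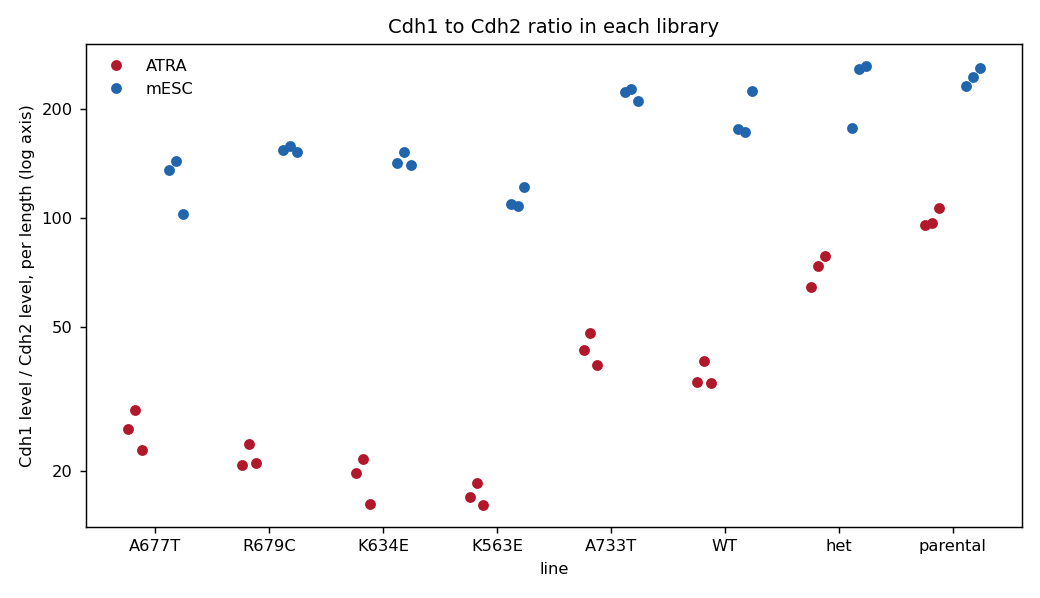
Ratio of Cdh1 to Cdh2 level per length in each library (log axis) by line, with ATRA in red left of mESC in blue. In ATRA the Weaver libraries lie at 16.2 to 29.6 and the parental libraries at 95.8 to 107.

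Genes of tight junctions, desmosomes, keratins and epithelial regulators were mostly lower in the Weaver lines and mostly higher in A733T, where they were called at all. This list and those below were chosen with earlier results known. Of 34 such genes tested in mESC, 2 were higher and 23 lower in the Weaver mean than in WT, with a median log2 fold change of -0.46 against 0.00 over all genes. The calls over all genes were 21.4% higher and 22.9% lower. Among the lower ones were Krt19 (log2 fold change -1.61, adjusted p = 2.3e-05), an epithelial keratin, and Marveld3 (log2 fold change -1.45, adjusted p = 9.37e-06), a tight junction protein, and among the higher ones Tjp1 (log2 fold change 0.40, adjusted p = 1.11e-05), the scaffold protein ZO-1. In ATRA 0 of 37 were higher and 18 lower (median -0.32), beside 8.43% higher and 12.1% lower of all genes, including Cldn6 (log2 fold change -1.26, adjusted p = 1.44e-09), a claudin of early epithelia, and Dsg2 (log2 fold change -0.95, adjusted p = 1.07e-12), a desmosomal cadherin. In A733T the list ran the other way, with 15 higher and 0 lower than WT in mESC (median 0.29) and 23 of 37 higher and 0 lower in ATRA (median 0.56). All genes gave 10.7% higher and 8.64% lower in mESC and 10.4% higher and 7.33% lower in ATRA. With the GC correction the mESC count in A733T was 23 higher and 0 lower, that in A733T in ATRA was 25 higher and 2 lower, and that in the Weaver mean in mESC was 5 higher and 21 lower. Dsp (log2 fold change 1.95, adjusted p = 1.42e-08), the desmosomal plaque protein desmoplakin, was among the largest. In WT against het, 0 were higher and 13 lower in mESC (median -0.33), and 2 higher and 12 lower in ATRA (median -0.24), beside 5.22% higher and 6.84% lower of all genes in mESC and 7.64% higher and 8.74% lower in ATRA.

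Mesenchymal genes were called in both directions, at 12 of 15 in mESC and 8 of 18 in ATRA for the Weaver mean, beside 44.4% and 20.5% of all genes. In mESC 5 of 15 were higher and 7 lower in the Weaver mean (median 0.11), and in ATRA 3 of 18 were higher and 5 lower (median 0.01). Vim (log2 fold change 1.16, adjusted p = 1.23e-14), the intermediate filament gene vimentin, was higher in the Weaver mean in mESC, while Tgfbi (log2 fold change -1.20, adjusted p = 3.43e-07), an extracellular matrix protein, was lower. Vim was higher in ATRA too (log2 fold change 0.40) and lower in A733T in both states (-0.42 in ATRA and -1.42 in mESC). In A733T, where 19.3% of all genes were called in mESC and 17.7% in ATRA, 3 of 15 mesenchymal genes were higher and 2 lower in mESC, and 6 of 18 higher and 1 lower in ATRA, where the GC correction made it 6 higher and 4 lower. Between ATRA and mESC in WT cells, 12 of 19 mesenchymal genes were higher and 4 lower (median 0.94), and 12 of 37 epithelial genes were higher and 17 lower (median -0.17), beside 29.8% higher and 29.2% lower of all genes.

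Other cadherins and adherens junction genes gave 4 higher and 3 lower of 14 in the Weaver mean in mESC, near the 44.4% of all genes called there. Cdh3 (log2 fold change -0.99, adjusted p = 3.46e-09), the P-cadherin gene, was lower and Cdh6 (log2 fold change 0.96, adjusted p = 0.00733), a cadherin of kidney and neural crest, was higher, a call that the GC correction took away (adjusted p = 0.0539). In A733T in mESC both were higher (0.85 for Cdh3 and 1.26 for Cdh6). Between ATRA and mESC in WT, 11 of 17 were higher and 4 lower, beside 29.8% higher and 29.2% lower of all genes. Of the other EMT regulators, 7 of 22 were higher and 5 lower in the Weaver mean in mESC, and 6 of 27 higher and 5 lower in ATRA, beside 44.4% of all genes called in mESC and 20.5% in ATRA. Lef1 (log2 fold change 1.24, adjusted p = 1.09e-10), a nuclear partner of beta-catenin, was higher in the Weaver mean in mESC and lower in A733T (-1.11). In A733T in ATRA 7 of 27 were higher and 3 lower, beside 10.4% higher and 7.33% lower of all genes, led by Foxc1 (log2 fold change 2.58, adjusted p = 6.56e-08), a forkhead factor of mesoderm and neural crest. Beside these values, the 8 mesoderm and primitive streak markers summed to 56 to 82.5 CPM in the Weaver libraries and 49.8 to 54.1 CPM in WT libraries in mESC, with 5 of 8 reaching 1 CPM. That sum was mostly Eomes, at 17.6 to 75.2 CPM over all mESC libraries, while every other marker stayed at or below 5.27 CPM. Eomes is also among the EMT regulators counted here, so the sum is no separate measure. The part of such cells in the differences was not tested.

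**Figure D5:**
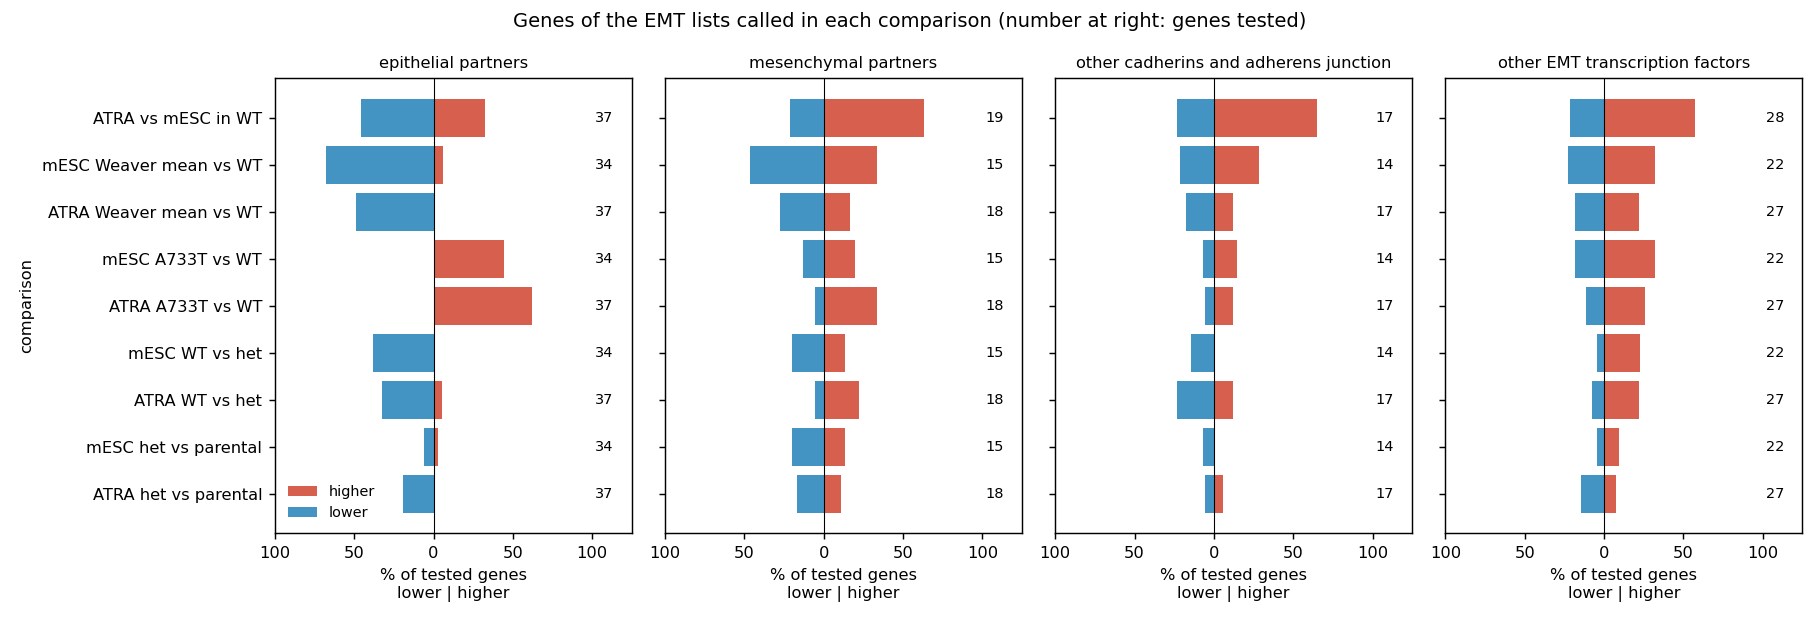
Share of the tested genes of each list called higher (right, red) or lower (left, blue) in each comparison, with the number tested beside each bar. Of the epithelial genes in mESC, 23 of 34 were lower in the Weaver mean and 15 of 34 higher in A733T.

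The genes whose pattern was most like each adhesion gene were found over the 16 group means of log2 CPM, centred within each state, among 10093 protein-coding genes. For Cdh1 these were Pecam1 (Pearson r = 0.98), an adhesion receptor, Tars (0.97), a transfer RNA synthetase, and Trib3 (0.97), a pseudokinase. For Cdh2 they were Orc6 (0.95), a subunit of the replication origin recognition complex, Vcan (0.93), a matrix proteoglycan, and Hoxb5 (0.93), a homeobox gene. For Epcam they were Zc3hav1 (0.96), an antiviral zinc finger protein, Chmp2a (0.96), a subunit of the ESCRT membrane-scission machinery, and Sptb (0.94), a beta-spectrin. Among the 8 genes themselves, over the same 16 means, Cdh1 had r = 0.87 with Epcam and -0.69 with Cdh2. With the factor genes, Cdh1 had r = -0.80 for Zeb1, -0.78 for Zeb2, -0.65 for Snai2, 0.19 for Snai1 and 0.17 for Twist1. Other pairs included Snai2 and Zeb2 (0.86), Epcam and Zeb2 (-0.84) and Snai1 and Twist1 (0.74). These values describe means that share libraries, depth and the split into Weaver and other lines.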

How the data were processed

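The authors deposited 1 table of raw counts, the number of reads per gene without normalisation. The submitters' processing notes name the genome build mm10 and the tools STAR 2.7.3a, cutadapt 3.2, DESeq2 1.38.3 and featureCounts 1.6.4 without their roles. The annotation used for counting, and whether it was stranded, is not given in the sources used here. Identifiers were matched without version to GENCODE M21 (55141 of 55401 found). Of 54 samples, 48 were matched to columns by name, 6 columns matched no label, and the line Y728 was not analysed here.

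Tests used edgeR 4.0.16 in R 4.3.3 (filterByExpr, TMM, robust quasi-likelihood test, Benjamini-Hochberg adjustment over all genes tested), on the 24 libraries of a state (16 residual degrees of freedom) or on all 48 (32), in 28 comparisons. The Weaver mean weights 4 lines equally. The test was tried on simulated data. Alternatives were RLE size factors, DESeq2 1.42.0, no filter, a per-library lowess correction for GC content, a replicate block and leaving out each library. CPM values use TMM-scaled library sizes. Same-numbered libraries of R679C and WT in ATRA deviated together in each of 3 pairs (correlations 0.193, 0.189 and 0.312), and no label says that a number marks a shared batch. Libraries of a group differed by 2.81 to 39.5 in chi-square per degree of freedom, so none is a copy of another.

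The 8 genes and the gene lists were chosen with earlier results of these data known. Of each list, up to 2 genes per direction and comparison could be named, those with the largest change among called genes at 1 CPM or more in a compared group; for Cdh1, Cdh2 and Epcam, the 3 genes with the most similar pattern at 5 CPM or more.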

Additional observations from a re-analysis of the deposited data

Results flagged for a closer look

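In 4 cases the difference between lines itself differed between ATRA and mESC by an interaction test over all 48 libraries (edgeR, Benjamini-Hochberg adjusted over all genes). For Zeb1, the difference between the Weaver mean and WT changed by -0.34 on the log2 scale (adjusted p = 0.0493), with 0.47 in ATRA and 0.84 in mESC, and this call was lost in 20 of 30 leave-one-out fits. For Twist1, the change was 0.90 (adjusted p = 0.00376), with 0.14 in ATRA and -0.72 in mESC, and the call was lost without mESC WT replicate 3 (0.0717). For Zeb1 in A733T against WT it was -0.66 (adjusted p = 0.00333), with -0.70 in ATRA and -0.02 in mESC. For Cdh1 in WT against het it was -0.36 (adjusted p = 0.0439), with -0.57 in ATRA and -0.22 in mESC, and the call was lost in 10 of 12 leave-one-out fits. Interactions of single Weaver variants were not tested.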

How the results depend on the processing

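The 8 genes in 28 comparisons gave 3167 log2 fold changes under other settings. In these cases the count of the 8 genes called moved by over 1.5 times. In mESC, the Weaver mean against WT gave 4 genes, and 2 with the GC correction with or without the replicate block. K563E against WT in mESC gave 2, and 4 with the replicate block. In mESC, het against parental gave 0, and 1 with the GC correction, 1 with the replicate block and 2 with both. In ATRA, WT against het gave 3, and 5 with the GC correction and 6 with the GC correction and the replicate block. The Weaver interaction gave 2, and 1 with no filter on low counts. The A733T interaction gave 1, and 2 with the GC correction and 3 with the GC correction and the replicate block. The WT and het interaction gave 1, and 0 with RLE size factors. With 1 library left out, the counts were 1 to 2 for WT against het in mESC (3 with all), 1 to 4 for K634E against WT in mESC (3 with all), 1 to 2 for het against parental in ATRA (2 with all), 1 to 3 for the Weaver interaction (2 with all) and 0 to 1 for the WT and het interaction (1 with all).

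In 84 values the sign differed from the main value, and in all 84 neither value passed the test; the causes were not tested beyond the settings named. With the GC correction these log2 fold changes were Epcam 0.0520, Snai1 0.11 in mESC Weaver mean against WT, Epcam 0.0464, Snai1 0.29 in mESC A677T against WT, Snai1 0.11 in mESC R679C against WT, Epcam 0.0422 in mESC K634E against WT, Snai1 0.12 in mESC K563E against WT, Snai1 0.12, Snai2 -0.0392 in ATRA Weaver mean against WT, Epcam 0.0116, Snai1 0.0930 in ATRA K634E against WT, Zeb2 -0.0168 in ATRA WT against het and Epcam 0.00661 in the WT and het interaction. With the replicate block and the GC correction they were Epcam 0.0521, Snai1 0.10 in mESC Weaver mean against WT, Epcam 0.0454, Snai1 0.29 in mESC A677T against WT, Snai1 0.10 in mESC R679C against WT, Epcam 0.0422 in mESC K634E against WT, Snai1 0.11 in mESC K563E against WT, Snai1 0.12, Snai2 -0.0317 in ATRA Weaver mean against WT, Epcam 0.0118, Snai1 0.0953 in ATRA K634E against WT, Zeb2 -0.0102 in ATRA WT against het and Epcam 0.00730 in the WT and het interaction. With RLE size factors, Snai1 0.00164 in ATRA Weaver mean against WT differed in sign. With DESeq2, Snai1 0.00159 in ATRA Weaver mean against WT differed in sign. With low counts kept, Epcam -0.00395 in ATRA K563E against WT differed in sign. With the replicate block, Epcam -0.000736 in ATRA K563E against WT differed in sign. With 1 library left out, the ranges that crossed 0 were, for each comparison, Cdh2 -0.0716 to 0.20 in mESC Weaver mean against WT, Cdh2 -0.13 to 0.14 in mESC A677T against WT, Snai1 -0.21 to 0.12 in mESC A677T against WT, Epcam -0.0177 to 0.0913 in mESC R679C against WT, Snai1 -0.29 to 0.0385 in mESC R679C against WT, Cdh2 -0.0274 to 0.24 in mESC K634E against WT, Snai1 -0.33 to 0.00300 in mESC K563E against WT, Cdh2 -0.20 to 0.0723 in mESC A733T against WT, Zeb1 -0.12 to 0.0568 in mESC A733T against WT, Cdh2 -0.0521 to 0.25 in mESC WT against het, Snai1 -0.00211 to 0.33 in mESC WT against het, Snai2 -0.48 to 0.32 in mESC WT against het, Cdh2 -0.28 to 0.0203 in mESC het against parental, Epcam -0.0723 to 0.00182 in mESC het against parental, Epcam -0.0271 to 0.0249 in ATRA Weaver mean against WT, Snai1 -0.0927 to 0.0830 in ATRA Weaver mean against WT, Snai2 -0.18 to 0.21 in ATRA Weaver mean against WT, Snai2 -0.21 to 0.19 in ATRA R679C against WT, Twist1 -0.0467 to 0.12 in ATRA K634E against WT, Epcam -0.0326 to 0.0249 in ATRA K563E against WT, Cdh1 -0.0543 to 0.0309 in ATRA A733T against WT, Snai2 -0.0381 to 0.37 in ATRA WT against het, Zeb2 -0.0339 to 0.10 in ATRA WT against het, Zeb1 -0.0372 to 0.0851 in ATRA het against parental, Snai1 -0.00255 to 0.40 in the Weaver interaction, Snai1 -0.24 to 0.10 in the A733T interaction, Epcam -0.0866 to 0.00125 in the WT and het interaction, Snai2 -0.18 to 0.63 in the WT and het interaction and Snai2 -0.74 to 0.0439 in the het and parental interaction.

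The deviations of same-numbered libraries from their group means correlated above 0.1 in 7 of 30 pairs among the Weaver lines and WT in mESC and in 19 of 30 in ATRA. Of the single variants against WT in ATRA this held for 2 of 3 pairs in A677T, 3 of 3 in R679C, 2 of 3 in K634E and 1 of 3 in K563E, and in mESC for 0 of 3 in each. Between ATRA and mESC it held for 2 of 3 in A677T and in R679C, and in the other comparisons between 2 groups that were examined for at most 1 of 3. The replicate block changed no call of the 8 genes in R679C against WT in ATRA. Over all comparisons it took away no call and added 9. These were, with adjusted p-values, Zeb2 in R679C (0.0355), K634E (0.0405) and K563E (0.0462) and Cdh2 in K563E (0.0466) against WT in mESC, Cdh1 in het against parental in mESC (0.0357), Cdh2 in A733T against WT in ATRA (0.0346), Zeb1 in WT against het in ATRA (0.0307), Snai1 in ATRA against mESC in parental (0.0443) and Cdh2 in the Weaver interaction (0.0262). Among the settings that kept every library, calls made only by the block together with the GC correction were Snai1 in het against parental in mESC (0.0388), Twist1 in the Weaver mean against WT (0.0412) and in WT against het (0.0246) in ATRA, and Cdh1 in the A733T interaction (0.0115). Twist1 in WT against het in ATRA was also called without het replicate 1 (0.0483). Over all genes, WT against het called 1909 in mESC and 3155 with the GC correction, A733T against WT called 3014 in ATRA and 4554 with it, and het against parental called 544 in mESC and 984 with it. Precision is limited most for Zeb2 and Snai2 in mESC, which reached at most 1.75 and 1.03 CPM.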
